A study of Mus musculus with 12 samples.

Results

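A set of 10 genes of tracheal and bronchial cartilage were followed in embryonic mouse lungs that lacked the kinases MEK1 and MEK2 to different degrees in the mesenchyme. They were the transcription factors Sox9, Sox5 and Sox6, and the matrix genes Col2a1, Col9a1, Col9a2, Col9a3, Hapln1, Acan and Matn1. Every probe that the platform annotation assigns to one of these symbols was taken, which gave 19 of the 25697 probes on the array and all 10 of the listed genes, out of 16593 named. Of these, 7 probes of 5 genes gave a signal that could be compared between genotypes, and 12 probes lay at background. No cartilage probe passed the test in any of the 3 comparisons between genotypes.

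The arrays measured messenger RNA of whole lungs from E15.5 embryos of the background strain 129/Sv, with 4 specimens for each of 3 genotypes. Controls were Dermo1+/Cre and carried the recombinase alone. The second group was Mek1+/flox;Mek2-/-;Dermo1+/Cre, in which Mek2 was deleted in every cell and recombined cells kept 1 Mek1 allele, and it is called 1 Mek1 allele here. The third was Mek1flox/flox;Mek2-/-;Dermo1+/Cre, called double mutant here, in which recombined cells should keep neither gene. All 12 specimens carried the Cre, which is expressed from the Dermo1 (Twist2) locus in embryonic mesenchyme, so the epithelium of both mutant groups lacked Mek2 but was not a target of the Cre, and no group lacked the Cre. Whether specimens were single lungs or pools, and whether tracheas were kept with them, is not stated in the labels. Replicates are the specimens so numbered by the labels, and p-values measure the spread between these specimens.

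The rings and plates of cartilage that hold the trachea and main bronchi open form from mesenchyme beside the ventral airway. SOX9 starts the chondrocyte programme, and SOX5 and SOX6 act with it on enhancers of the matrix genes. Type II collagen, made from Col2a1, forms the fibrils, type IX collagen decorates them, and aggrecan, bound to hyaluronan through the link protein encoded by Hapln1, holds water between them. Sox9 is not specific to cartilage in the lung, since the epithelium at the tips of the branching airways expresses it too. In whole lungs, fewer cells of a type and less RNA per cell cannot be told apart.

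The brightness of the arrays differed. The upper quartile of raw intensity ran from 226.6 to 390.1, and control replicates 2 and 3, at 390.1 and 388.3, were brightest. Between 10467 and 11878 probes were above background on an array, meaning a detection p under 0.01 against the array's negative controls, and within-group correlations of log2 values ran from 0.979 to 0.993. The targeted gene Map2k2, which encodes MEK2, was at 11.59 ± 0.08 in the controls, at 10.58 ± 0.15 with 1 Mek1 allele, and at 10.85 ± 0.24 in the double mutants (log2 intensity, mean ± SD, n = 4 each). This probe was lower than in controls in both mutant groups (limma adjusted p = 0.00135 with 1 Mek1 allele and 0.00714 in double mutants). A second Map2k2 probe was above background on 5 of 12 arrays, namely 4 control arrays, 0 with 1 Mek1 allele and 1 double mutant array. It was thus tested because of the controls, and most mutant values were at background. It differed by -0.76 and -0.81 and did not pass (limma adjusted p = 0.116 and 0.0671). Where either probe lies relative to the deleted part of Map2k2 is not known here, so the signal that remained is not read as transcript. Map2k1 had a single probe, detected above background on 0 of 12 arrays, so the deletion of Mek1 could not be checked. Lung epithelial markers Sftpc and Nkx2-1 and the mesenchymal markers Tcf21, Tbx4 and Foxf1 were above background on all 12 arrays, whereas Wnt2, also a mesenchymal marker, was on 1.

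The label of cartilage was borne out by only a part of its defining markers. Col2a1 was above background on all 12 arrays with both of its probes, Sox9 and Col9a2 with their single probes and Sox5 with 2 of its 4 probes. Hapln1 was above background on 7 of 12. Against this, Acan, Matn1, Col9a3 and Sox6 were above background on 0 of 12 arrays, and so was Cnmd, the chondrocyte surface protein chondromodulin. On a single array, 6 to 8 of the 19 cartilage probes were above background, and in each genotype the same number, 6 probes, were above it on all 4 arrays. The signal is therefore described gene by gene, without a claim that these lungs held a given amount of cartilage.

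**Figure D1:**
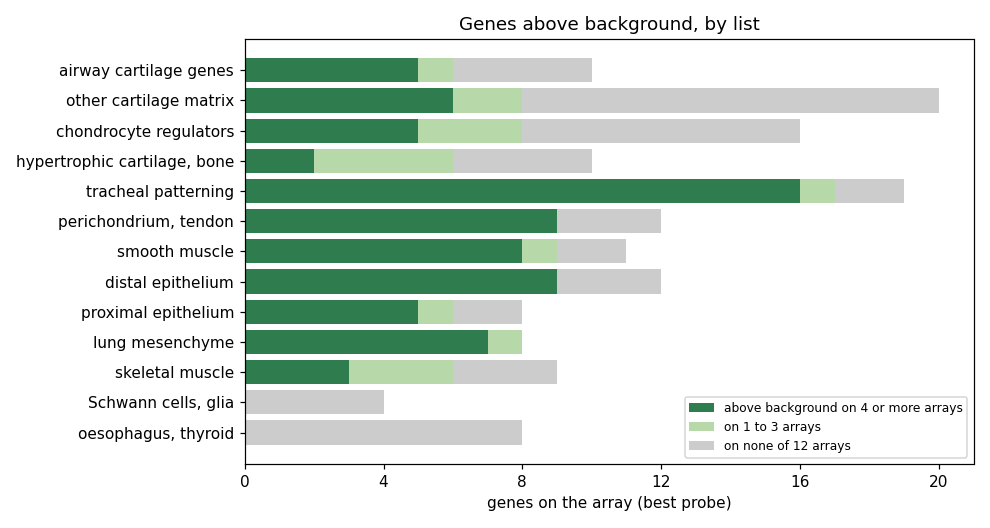
Number of genes on the array in each gene list, split by how many of the 12 arrays their best probe was above background on (at least 4, 1 to 3, or none). Of the 10 airway cartilage genes, 5 were above background on at least 4 arrays and 4 on none, and of 20 other cartilage matrix genes 6 and 12.

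Promoter sequences from RefSeq (assembly GRCm38.p6, windows of 300 bases across the annotated start) are shown for Sox5, Col9a2 and Hapln1, the 3 genes with measured probes for which the table has an entry. They let the reader see the sequence near the start of the genes whose values follow. The core words ACAAAG and ACAATG, to which SOX proteins can bind, and the TATA box word TATAAA were searched on both strands. Capitals mark the only match in these windows, an ACAATG of the Sox5 window, so no matches overlap.
Sox5 (chr6:143947057-143947356, minus strand): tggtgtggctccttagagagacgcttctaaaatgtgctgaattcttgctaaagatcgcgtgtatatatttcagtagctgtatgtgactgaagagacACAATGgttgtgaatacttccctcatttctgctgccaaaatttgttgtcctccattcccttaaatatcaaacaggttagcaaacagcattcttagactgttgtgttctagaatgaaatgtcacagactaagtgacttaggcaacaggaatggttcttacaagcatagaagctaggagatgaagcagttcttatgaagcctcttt
Col9a2 (chr4:121039316-121039615, plus strand): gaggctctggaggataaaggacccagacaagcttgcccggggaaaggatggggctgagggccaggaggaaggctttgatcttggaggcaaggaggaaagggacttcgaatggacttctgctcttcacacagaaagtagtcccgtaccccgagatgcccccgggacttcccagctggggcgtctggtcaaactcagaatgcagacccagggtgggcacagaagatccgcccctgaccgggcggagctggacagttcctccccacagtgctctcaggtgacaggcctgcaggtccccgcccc
Hapln1 (chr13:89540386-89540685, plus strand): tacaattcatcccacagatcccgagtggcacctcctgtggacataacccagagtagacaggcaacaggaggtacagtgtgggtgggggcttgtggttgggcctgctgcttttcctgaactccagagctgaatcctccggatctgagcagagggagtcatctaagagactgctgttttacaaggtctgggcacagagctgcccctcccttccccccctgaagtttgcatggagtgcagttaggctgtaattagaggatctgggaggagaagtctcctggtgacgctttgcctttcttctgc
Of 32851 mouse promoter windows of this length, 18.7% hold ACAAAG, 12.6% hold ACAATG and 13.6% hold TATAAA. The GC content was 39.7% in the Sox5 window, 54.3% in that of Hapln1 and 61.7% in that of Col9a2. A match is a word in the sequence and not a site, and the windows without a match say nothing of more distant enhancers.

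Values below are log2 intensities after background correction and quantile normalization, given for replicates 1 to 4 of a group in that order. Sox9 (chromosome 11, 1 probe), the regulator at the start of the programme, measured 7.86, 8.21, 8.30 and 7.82 in controls. With 1 Mek1 allele it measured 8.03, 8.03, 7.43 and 8.47, and in double mutants 7.95, 7.75, 8.11 and 7.66. The highest and the lowest of the 12 values both belonged to the 1 Mek1 allele group, and the 3 groups overlapped. Group means were 8.05 ± 0.24, 7.99 ± 0.43 and 7.87 ± 0.20 (SD, n = 4 each), a difference of -0.18 ± 0.19 (SE) between double mutants and controls with a 95% interval from -0.59 to 0.23 (limma adjusted p = 0.664). The intervals were -0.54 to 0.29 for double mutants against 1 Mek1 allele (limma adjusted p = 0.867) and -0.47 to 0.36 for 1 Mek1 allele against controls (limma adjusted p = 0.91). The Sox9 difference between double mutants and controls was 0.02 without control replicates 2 and 3, which leaves 2 controls. These were the brightest arrays and also held the highest Sox9 values of the controls, so brightness and specimen cannot be told apart. With 1 array left out at a time the difference ran from -0.26 to -0.1. Of 12 genes of distal epithelium, the other tissue with Sox9, 9 were measured. With the probe of highest mean 0 passed in any comparison, beside 2.97%, 0.397% and 0.819% of all probes. In double mutants against controls 6 of 9 were positive, with a median of 0.23. The brightest, Sftpc, Nkx2-1, Etv5 and Sftpb, differed by 0.28, -0.04, 0.02 and 0.32, and Id2 by -0.55 (limma adjusted p = 0.232). One other probe of Napsa, an aspartic protease of alveolar type II cells, was higher in double mutants than in controls (log2 0.94, limma adjusted p = 0.0489), while the remaining Napsa probes gave 0.92 and 0.79 (limma adjusted p = 0.0626 and 0.0544). The list had summed signals of 6199 to 10180 in controls, 8117 to 8661 with 1 Mek1 allele and 7718 to 11242 in double mutants. Most of this sum came from Sftpc, with mean log2 intensities of 12.39, 12.44 and 12.67 in the same order. The part of the distal genes in the Sox9 values was not tested.

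Sox5 (chromosome 6) encodes a partner of SOX9 without a transactivation domain of its own and was read by 4 probes. Probe ILMN_2631143 measured 8.60, 8.35, 8.38 and 8.58 in controls, 8.18, 8.40, 8.62 and 8.27 with 1 Mek1 allele, and 8.78, 8.62, 8.43 and 8.53 in double mutants. The double mutant values were not separate from either other group, although raw intensities with 1 Mek1 allele, 341.4 to 406.0, all lay below those of both other groups before normalization. The largest of its 3 differences was 0.22 between double mutants and 1 Mek1 allele (95% interval -0.03 to 0.48, limma adjusted p = 0.522). Against controls, double mutants differed by 0.11 ± 0.12 (limma adjusted p = 0.657) and 1 Mek1 allele by -0.11 ± 0.12 (limma adjusted p = 0.694).

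Probe ILMN_1244213 of Sox5 gave group means of 6.19 ± 0.20, 6.21 ± 0.24 and 6.20 ± 0.15 for controls, 1 Mek1 allele and double mutants, with single values from 5.97 to 6.45. Its group means lay within 0.02 of each other on the log2 scale, and the difference between double mutants and controls was 0.01 with a 95% interval from -0.29 to 0.31 (limma adjusted p = 0.987). Deviations of both Sox5 probes from their group means correlated at r = 0.52 over 12 arrays, a description, since they share the same RNA. The other 2 Sox5 probes, and all 3 probes of Sox6 (chromosome 7), the second partner of SOX9, were above background on no array.

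Among the matrix genes, Col2a1 (chromosome 15), the gene of type II collagen, was the one with the largest positive difference in double mutants. Its probe ILMN_2759142 measured 7.51, 7.50, 8.16 and 7.88 in controls. It measured 7.79, 8.06, 7.64 and 8.38 with 1 Mek1 allele, and 7.81, 8.11, 8.12 and 8.37 in double mutants. Control replicates 1 and 2 were the lowest of the 12, but control replicate 3 lay above 3 of the 4 double mutants, so the groups overlapped. The means were 7.76 ± 0.32, 7.97 ± 0.32 and 8.10 ± 0.23, and double mutants exceeded controls by 0.34 ± 0.19, with a 95% interval from -0.06 to 0.74 that includes 0 (limma adjusted p = 0.352).

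The other Col2a1 probe, ILMN_2759144, measured 7.04, 7.28, 7.28 and 7.53 in controls, 7.62, 7.28, 7.32 and 7.91 with 1 Mek1 allele and 7.82, 7.33, 7.36 and 7.55 in double mutants. The lowest value was again a control, and the groups overlapped here too. Double mutants differed from controls by 0.23 ± 0.16 (limma adjusted p = 0.477) and 1 Mek1 allele by 0.25 ± 0.16 (limma adjusted p = 0.462). Between both mutant groups the probes gave 0.13 (95% interval -0.27 to 0.54, limma adjusted p = 0.844) and -0.02 (-0.36 to 0.33, limma adjusted p = 0.983). The deviations of the Col2a1 probes from group means correlated at r = 0.29 over 12 arrays.

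Col9a2 (chromosome 4), which encodes a chain of type IX collagen, measured 7.95, 7.84, 7.96 and 8.42 in controls, 7.88, 7.74, 8.10 and 7.91 with 1 Mek1 allele, and 7.66, 7.73, 7.94 and 7.97 in double mutants. The highest value was control replicate 4 and the 2 lowest were double mutants, with overlap between all groups. Means were 8.04 ± 0.26, 7.91 ± 0.15 and 7.83 ± 0.15, and the difference of double mutants from controls was -0.22 ± 0.13 (95% interval -0.51 to 0.07, limma adjusted p = 0.422). Against 1 Mek1 allele it was -0.08 (limma adjusted p = 0.875), and 1 Mek1 allele differed from controls by -0.14 (limma adjusted p = 0.662).

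Hapln1 (chromosome 13), the gene of the link protein that fastens aggrecan to hyaluronan, had the smallest p-value of the cartilage probes and lay close to background. It measured 5.38, 6.26, 6.07 and 5.94 in controls, 5.43, 5.78, 5.32 and 5.84 with 1 Mek1 allele, and 5.36, 5.29, 5.48 and 4.94 in double mutants. Control replicate 1 lay among the double mutants, and the other 3 controls lay above them, so that the groups overlapped by that 1 array. Above background were 3 of 4 control arrays, 2 of 4 with 1 Mek1 allele and 2 of 4 double mutant arrays. Raw intensities were 129.3 to 207.8, 122.0 to 142.2 and 119.2 to 132.4 in the same order.

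Group means of Hapln1 were 5.91 ± 0.38, 5.59 ± 0.26 and 5.27 ± 0.23. Double mutants were at -0.65 ± 0.19 relative to controls, with a 95% interval from -1.05 to -0.24, an unadjusted limma p of 0.0042 and an adjusted p of 0.0868. It did not pass the threshold over all probes. It was -0.33 for double mutants against 1 Mek1 allele (95% interval -0.73 to 0.08, limma adjusted p = 0.567) and -0.32 for 1 Mek1 allele against controls (-0.72 to 0.08, limma adjusted p = 0.416). Its size depended on the background correction, being -0.21 without one (limma adjusted p = 0.125) and -0.23 with the authors' deposited log2 values (limma adjusted p = 0.122). It also changed with the arrays used, and ran from -0.83 to -0.52 when 1 array was left out at a time. It was -0.83 (limma adjusted p = 0.0242) without control replicate 1, and -0.38 (limma adjusted p = 0.512) without both bright control replicates, 2 and 3.

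**Figure D2:**
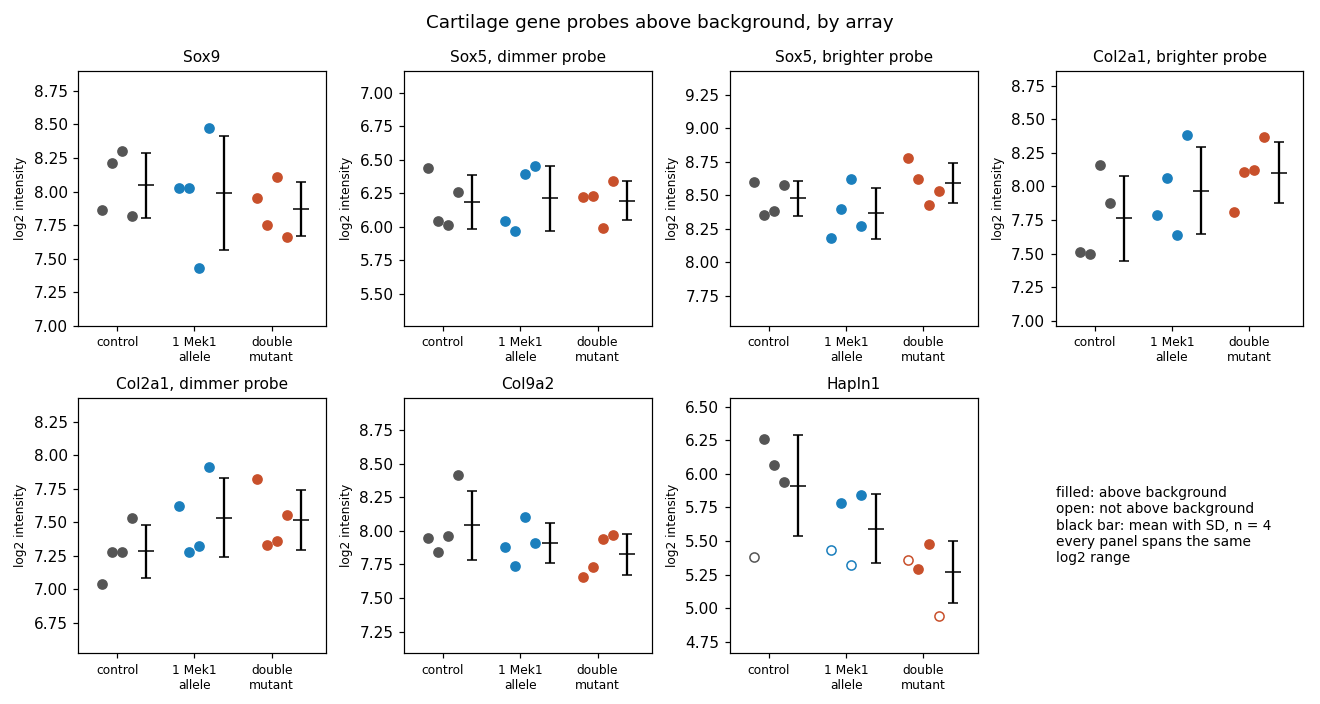
Log2 intensity of the 7 cartilage probes that were above background on at least 4 arrays, by array, for controls, 1 Mek1 allele and double mutants; filled points were above background, open points were not, and black bars give the mean with SD (n = 4). In all 7 panels the groups overlap, and Hapln1 shows the widest spacing of the means, from 5.91 in controls to 5.27 in double mutants.

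Read together, 0 of the 7 probes passed limma's adjusted p under 0.05 in double mutants against controls, where 2.97% of the 11841 probes tested did. The figures were 0 of 7 against 0.397% for double mutants against 1 Mek1 allele, and 0 of 7 against 0.819% for 1 Mek1 allele against controls. At an unadjusted p under 0.05 the counts were 1, which was Hapln1, 0 and 0, where 18.4%, 11.3% and 16.1% of all probes fell. A count of 0 among 7 probes is near the background at these shares. Groups did not overlap for 0 of 7 cartilage probes in any comparison, against 13.4%, 6.08% and 9.73% of all probes.

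The median difference of the 7 probes was 0.01 in double mutants against controls, with 4 probes positive and 3 negative, beside -0.006 over all probes. It was -0.02 against -0.001 for double mutants against 1 Mek1 allele, and -0.06 against -0.004 for 1 Mek1 allele against controls. With 1 probe per gene, which leaves 5 probes, the median in double mutants against controls was -0.18, with 2 of 5 positive. Both Col2a1 probes were positive, while Sox9, Col9a2 and Hapln1 were negative, in double mutants against controls. The comparisons of the mutant groups with controls use the same control arrays and are not independent.

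**Figure D3:**
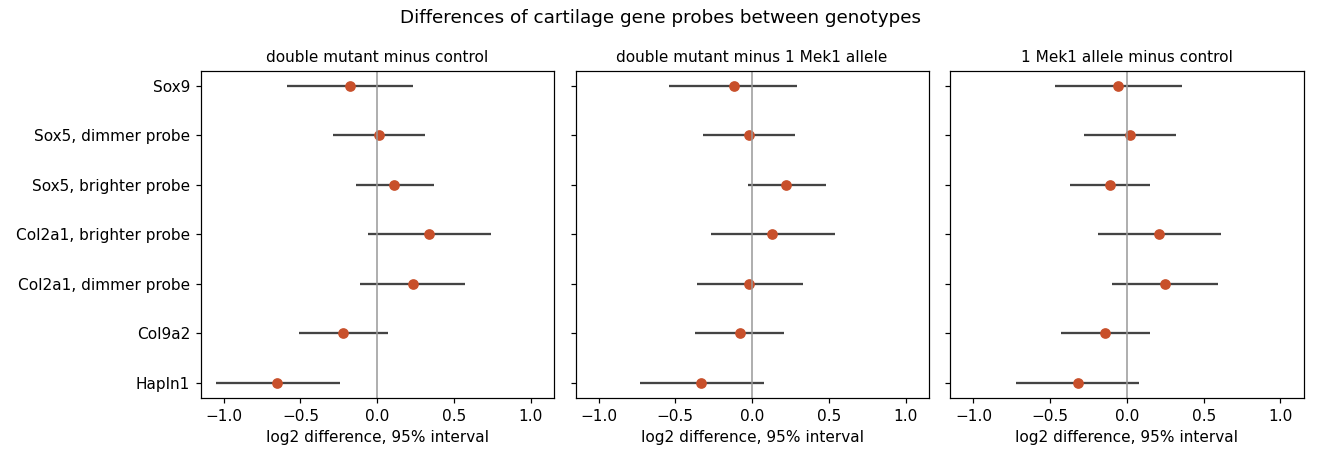
Log2 difference of each measured cartilage probe with its 95% interval in the 3 comparisons between genotypes; the vertical line marks no difference. Of the 21 intervals, only that of Hapln1 in double mutants minus controls (-1.05 to -0.24) leaves out 0, before adjustment for the number of probes tested.

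The 12 remaining probes belonged to Col9a1, Col9a3, Acan, Matn1 and Sox6 and to Sox5. Acan, aggrecan's gene (chromosome 7), and Matn1, which encodes the cartilage matrix protein matrilin-1 (chromosome 4), had raw intensities between 88.3 and 126.9 and between 89.6 and 118.7. Over all 12 probes the range was 86.7 to 160.3, where the lowest raw signal above background on an array lay between 110.2 and 147.6. Only 3 of their 144 array values were above background, and all 3 were from the Col9a1 probe ILMN_2939882 (chromosome 1, a chain of type IX collagen), on control replicate 2 and double mutant replicates 2 and 4. That probe measured 5.52 on the control array, and 5.26 and 5.50 on the double mutant arrays. Col9a3 (chromosome 2), the third chain of the same collagen, had a single probe that was above background nowhere.

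With the dim probes kept in the fit, 0 of 12 passed in each comparison, and the smallest limma adjusted p-values were 0.389, 0.578 and 0.687. Their differences ran from -0.20 to 0.07 in double mutants against controls, from -0.19 to 0.23 against 1 Mek1 allele and from -0.17 to 0.04 for 1 Mek1 allele against controls. Such values near the background compress a true difference. No difference was detectable for these genes with these probes, which is not the same as none being present.

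**Figure D4:**
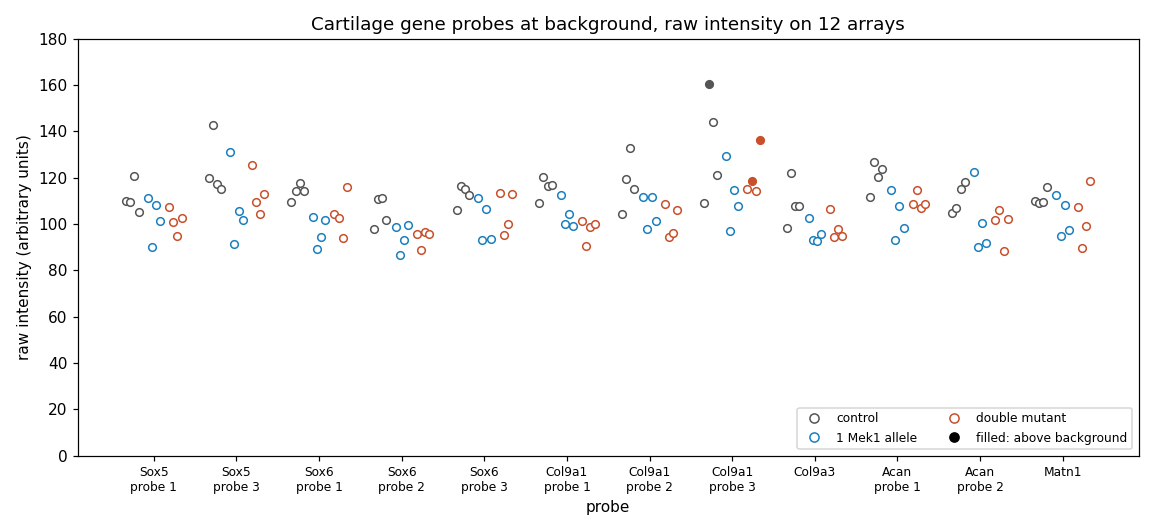
Raw intensity, in arbitrary units from 0, of the 12 cartilage probes that were above background on fewer than 4 arrays, for each of 12 arrays coloured by genotype. Filled points were above background: 3 of 144, all from the Col9a1 probe numbered 3, with all values between 86.7 and 160.3.

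Whether cartilage genes varied together between specimens of 1 genotype was examined for the 10 pairs of the 5 measured genes, with group means removed, over 12 arrays. The correlations ran from -0.69 to 0.71 with a median of -0.06, and 5 of 10 were positive. Sox9 and Hapln1 had r = 0.71 (n = 12, permutation p = 0.0045, adjusted 0.045) and rho = 0.76 (permutation p = 0.0124, adjusted 0.124), so that the pair passed by r and not by rho. It remained at r = 0.71 without the 2 arrays farthest from the Sox9 median. With each array left out in turn r ran from 0.69 to 0.79, and the pair passed in 1 of 12 such omissions (permutation adjusted p from 0.0213 to 0.306). Sox9 and Col2a1, a regulator and its target, had r = 0.47 (n = 12, permutation p = 0.194, adjusted 0.345), which was 0.01 without the 2 farthest arrays. Sox9 and Sox5 had r = -0.69 (n = 12, permutation p = 0.0374, adjusted 0.187). The 10 correlations thus had no common sign.

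Array brightness moved with the pair that passed. Against the raw upper quartile, group means removed, Sox9 had r = 0.76 (n = 12, permutation p = 0.00658, adjusted over 7 probes 0.023) and rho = 0.80 (permutation adjusted p = 0.0482). Hapln1 also had r = 0.76 (n = 12, permutation p = 0.0153, adjusted 0.0358) and rho = 0.68 (permutation adjusted p = 0.106), with r = 0.51 without the 2 farthest arrays. For Sox5 probe ILMN_2631143 the sign was opposite, with r = -0.78 (n = 12, permutation p = 0.00429, adjusted 0.023) and rho = -0.83 (permutation adjusted p = 0.0169). The other 4 probes, both of Col2a1 among them, had r between -0.53 and 0.45 and did not pass. The share of all probes that pass such a test was not computed. Variation with brightness is therefore not read as a trait of cartilage genes. With brightness removed, Sox9 and Hapln1 had r = 0.32 (permutation adjusted p = 0.835). With brightness as a covariate, the Hapln1 difference between double mutants and controls was -0.37 (limma adjusted p = 0.314).

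**Figure D5:**
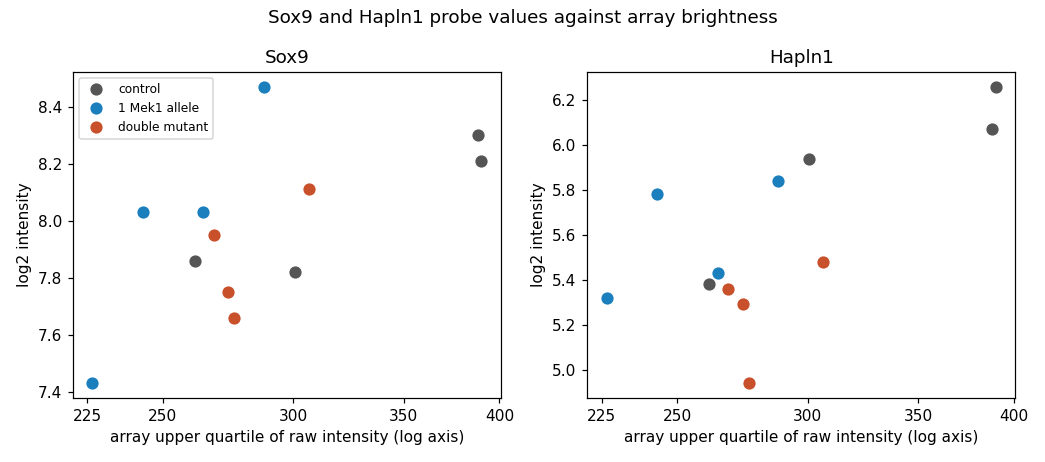
Log2 intensity of Sox9 (left) and Hapln1 (right) against the upper quartile of raw intensity of each array (log axis), 1 point per array, coloured by genotype. The 2 brightest arrays are control replicates 2 and 3, at 390.1 and 388.3, and hold the highest Hapln1 values, 6.26 and 6.07.

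The genes most like a cartilage gene in this variation were looked up among 8310 others, by Pearson's r of deviations from group means over 12 arrays. For Col2a1 they were Chek2 (r = 0.885), Ryk (0.873), Fiz1 (0.869), Rps26 (0.867) and Ptprg (0.866). For Sox9 they were Sdhd (r = 0.962), Gosr2 (0.958), Rpl35a (0.944), Slc30a7 (0.941) and Srf (0.933). None of the 10 was on a cartilage list, and with so many genes and 12 arrays these are descriptions. All genes of an array share its brightness.

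Other cartilage genes were read from lists that were set with earlier results of these data known. Of 20 further matrix genes on the array, 6 were measured, and 12 were above background on 0 of 12 arrays, among them Comp, Col11a2, Matn3, Ucma, Epyc, Chad and Cilp. In double mutants against controls 0 of 6 passed the test, beside 2.97% of all probes, as in both other comparisons (beside 0.397% and 0.819%). The median was 0.14 (0.02 and 0.05 in the others), with a smallest limma adjusted p of 0.0951 in double mutants against controls. That p was Prelp, a small leucine-rich proteoglycan of connective tissue, which measured 10.26, 10.16, 10.17 and 9.91 in controls and 10.44, 10.44, 10.54 and 10.34 in double mutants. These groups did not overlap, as for 13.4% of all probes in this comparison, and the difference was 0.32 ± 0.09. With 1 Mek1 allele Prelp measured 10.19, 10.20, 10.21 and 10.13, all within the range of the controls (0.06, limma adjusted p = 0.806). Double mutants lay above 1 Mek1 allele without overlap, as for 6.08% of all probes (0.26, limma adjusted p = 0.313).

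Fmod, a proteoglycan that binds collagen fibrils, measured 9.53, 9.22, 9.64 and 9.41 in controls and 9.71, 9.72, 9.76 and 9.98 in double mutants with its probe ILMN_2999762. These groups too did not overlap, as for 13.4% of all probes, and the difference was 0.34 ± 0.11 (limma adjusted p = 0.111), beside 0.33 with a second Fmod probe (limma adjusted p = 0.354). With 1 Mek1 allele ILMN_2999762 measured 9.63, 9.65, 9.78 and 9.81, a difference of 0.27 from controls (limma adjusted p = 0.244). Double mutants differed from 1 Mek1 allele by 0.08 (limma adjusted p = 0.844). The matrilin gene Matn4 differed by 0.12 (limma adjusted p = 0.581) with its probe ILMN_2729289 and by 0.11 and 0.39 with 2 others (limma adjusted p = 0.77 and 0.122), and Mia, a secreted protein first known from melanoma and cartilage, by -0.01 (limma adjusted p = 0.987), a sign that turned to 0.07 without control replicates 2 and 3. All 4 are made outside cartilage as well. The summed linear signal of the 6 genes ran from 4427 to 5135 in controls, 5270 to 5587 with 1 Mek1 allele and 5239 to 5781 in double mutants. For the 5 measured genes of the cartilage list itself it ran from 1093 to 1251, 1052 to 1293 and 1139 to 1190. The brightest of the 6, Matn4, had mean log2 intensities of 10.56, 10.85 and 10.67 in the same order. Its ILMN_2729289 values in the 1 Mek1 allele group, 10.82 to 10.87, all exceeded controls, as for 9.73% of all probes (0.29, limma adjusted p = 0.195). None of the 6 genes passed, and how often a summed list separates groups like this was not computed. Skeletal muscle signal was likewise lowest in controls, with sums of 133 to 169, 190 to 262 and 171 to 227 over 3 of 9 genes; its part in the matrix sum was not tested.

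Of 16 chondrocyte regulators outside the 3 SOX genes, 5 were measured and 8 were above background on no array. Fgfr3, a receptor that restrains chondrocyte growth and is expressed in lung epithelium too, rose in double mutants against controls, 1 of 5 beside 1.83% of all probes called higher. Its probe ILMN_1257208 measured 7.88, 7.55, 7.79 and 7.68 in controls, 7.77, 8.27, 8.36 and 7.94 with 1 Mek1 allele, and 8.39, 8.42, 8.31 and 8.50 in double mutants. All double mutants lay above all controls, and the rise was 1.60-fold (log2 0.68 ± 0.13, limma adjusted p = 0.0144). Neither double mutants against 1 Mek1 allele (0.32, limma adjusted p = 0.377) nor 1 Mek1 allele against controls (0.36, limma adjusted p = 0.195) passed. A second Fgfr3 probe, above background on 5 of 12 arrays, gave 0.21 in double mutants against controls (limma adjusted p = 0.697).

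The Fgfr3 call did not outlast 4 changes. Its adjusted p was 0.0552 without control replicate 2, 0.0506 without double mutant replicate 4, 0.167 without control replicates 2 and 3 and 0.0878 with brightness as a covariate, at differences of 0.62, 0.65, 0.62 and 0.55. Of 5 measured genes of proximal airway epithelium, 1, Cyp2f2 of club cells, rose in double mutants against controls, beside 1.83% of all probes called higher. It differed by 1.35 (limma adjusted p = 0.00336). Against 1 Mek1 allele it differed by 1.29 (limma adjusted p = 0.028), where 0.397% of all probes were called. With 1 Mek1 allele against controls it gave 0.06 (limma adjusted p = 0.911). Sox2 differed by 0.58 in double mutants against controls (limma adjusted p = 0.0515). The summed signal of the 5 genes ran from 2491 to 3101 in controls, 2318 to 3069 with 1 Mek1 allele and 3578 to 4552 in double mutants. Most of this sum came from Cldn10, with mean log2 intensities of 11.27, 11.16 and 11.72 in the same order. Cldn10 did not pass in double mutants against controls (0.45, limma adjusted p = 0.099). The part of the 5 genes in the Fgfr3 rise was not tested. The other 4 measured regulators differed by 0.11 (Wwp2, a ubiquitin ligase, 0.40 with each of 2 other probes), 0.09 (Zfp219, a SOX9 partner), -0.23 (Arid5b, another) and -0.31 (Trps1, a repressor), and none passed.

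Hypertrophic cartilage and bone markers were largely at background. Col10a1, the collagen of hypertrophic chondrocytes, and the bone genes Bglap, Panx3 and Dmp1 were above it on 0 of 12 arrays, Sp7 on 1, and Ibsp and Mmp13 on 2 each. The measured members were 2 of 10, Pth1r and Alpl, and 0 passed in any comparison, beside 2.97%, 0.397% and 0.819% of all probes. Of 19 genes of tracheal patterning, the signals between epithelium and mesenchyme that position the cartilage, 16 were measured. Of these 0 passed in any comparison, beside the same shares of all probes, with medians of -0.04, 0 and 0.01. The brightest, Tgfbr2, Bmp4, Hoxa5 and Shh, differed by -0.04, 0.13, -0.04 and -0.09 in double mutants against controls. Among the 16 measured, Rspo2, a Wnt agonist above background on 6 of 12 arrays, differed from controls by -0.73 in double mutants (limma adjusted p = 0.165). With 1 Mek1 allele Rspo2 differed from controls by -0.74 (limma adjusted p = 0.196). Wls, which releases Wnt ligands, differed from controls by -0.43 ± 0.10 with 1 Mek1 allele (limma adjusted p = 0.0583). In double mutants Wls differed from controls by -0.09 (limma adjusted p = 0.673) and from 1 Mek1 allele by 0.34 (limma adjusted p = 0.189).

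Neighbouring tissues gave 0 of 9 measured genes called for perichondrium and tendon and 0 of 8 for smooth muscle in all 3 comparisons. Over all probes the shares called were 2.97%, 0.397% and 0.819%, so counts of 0 are near them. In double mutants against controls, the medians of these lists were 0.05 and 0.09, with 6 of 9 and 5 of 8 genes positive. The brightest of perichondrium and tendon, Col1a1, Tnc, Scx and Thbs2, differed by 0.04, 0, 0.27 and 0.09. The brightest of smooth muscle, Acta2, Actg2, Mylk and Smtn, differed by -0.18, -0.05, 0.24 and 0.24. Other Acta2 probes gave -0.35, -0.18 and -0.16 (limma adjusted p = 0.0671, 0.516 and 0.387). Col14a1, a collagen of dense connective tissue, differed by 0.37 (limma adjusted p = 0.104), Scx, a tendon factor, by 0.27 (limma adjusted p = 0.33), and Myocd, which drives smooth muscle genes, by -0.37 (limma adjusted p = 0.0888). With 1 Mek1 allele against controls, the same genes differed by 0.40, 0.20 and -0.42 (limma adjusted p = 0.108, 0.517 and 0.0807). Markers of Schwann cells and glia (0 of 4) and of oesophagus and thyroid (0 of 8) were above background on no array.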

How the data were processed

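RNA of 12 lung specimens was extracted with Trizol, treated with DNase I, biotin-labelled and read on bead arrays (Illumina), as the labels' protocols state. In the deposited scanner table, each probe has 1 linear intensity on each array, per the file headers, not scaled between arrays. Beside each intensity stands a deposited detection p-value against the negative controls of that array. The authors' deposited log2 values, with array medians from 6.91 to 6.93, differed by a median of 0.00386 from quantile-normalized log2 intensities, run in the direction of intensity and are not centred per gene; their software is not named in the labels or headers. Precision is limited by the number of arrays, 4 per group.

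Background was fitted by normexp from the detection p-values (offset 16), then log2 values were quantile-normalized (nec, normalizeQuantiles; limma 3.58.1, R 4.3.3). A probe was tested if at least 4 of 12 arrays had a detection p under 0.01, as for 11841 of 25697. Symbols came from the platform annotation (23978 probes named, 1719 unnamed), chromosomes and promoters from RefSeq. The 3 group means were fitted with lmFit and eBayes (9 residual degrees of freedom), two-sided, with Benjamini-Hochberg adjustment over all 11841 probes and a threshold of 0.05. Correlations used 1e+05 permutations within groups. The fit was tested on simulated data.

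The genes and lists were chosen with earlier results of these data known. Named were all cartilage genes, the targeted genes, and the 5 genes most like Col2a1 and Sox9. List members past the threshold (up to 4 a list) and up to 4 further members with the highest level were also named. For proximal epithelium, lung mesenchyme and skeletal muscle, the members with the highest level were named only in part or not at all. Named outside this rule, after their values were seen, were the list members Col14a1, Myocd, Rspo2, Wls, Sox2, Napsa and Id2, defining markers and genes at background. Where a list gene had several probes, that with the highest mean stood for it. Alternatives were other backgrounds, scalings, filters, probe rules, variance models, covariates, a replicate block, subsets of arrays and leaving out each array.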

Additional observations from a re-analysis of the deposited data

How the results depend on the processing

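The 3 comparisons were repeated under 25 alternatives, 12 of which left out 1 array each; array brightness as a covariate was chosen after seeing the data. In double mutants against controls 1 cartilage probe, Hapln1, passed under upper-quartile scaling (-0.60, limma adjusted p = 0.0462), with array weights (-0.71, 0.0189) and without control replicate 1, so that single omissions gave 0 to 1. Under all other alternatives, and in both other comparisons under all, the count was 0. The Hapln1 adjusted p ran from 0.0189 to 0.512, and requiring signal on all 12 arrays removed the probe. The cause of these changes was not tested. The median for double mutants against controls, 0.01 over probes, was -0.18 with 1 probe per gene, which leaves out the second probes of Sox5 and Col2a1, and the median for 1 Mek1 allele against controls was 0.12 with brightness as a covariate, against -0.06. The correlated pair count of 1 became 0 without background correction (Sox9 and Hapln1 r = 0.70, smallest permutation adjusted p = 0.0614), under upper-quartile scaling (r = 0.59, 0.284), with the authors' values (r = 0.69, 0.0745) and with brightness removed (r = 0.32, 0.835). Over single omissions it was 0 to 1, and 0 in 11 of 12, at r from 0.69 to 0.79.

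Some differences changed sign, none of them called. The largest of them was -0.32, for Hapln1 in 1 Mek1 allele against controls. Without control replicates 2 and 3, double mutants against controls gave 0.02 for Sox9, -0.15 and 0 for the Sox5 probes ILMN_1244213 and ILMN_2631143, and 0.07 for Mia, and 1 Mek1 allele against controls gave 0.14 for Sox9, -0.14 for Sox5 ILMN_1244213 and -0.2 for Cyp2f2, a club cell gene. With brightness as a covariate, the same values were 0.1, -0.12, -0.04 and 0.11, and 0.39, -0.19 and -0.38, with 0.12 for Hapln1 in 1 Mek1 allele against controls and 0.06 for Sox5 ILMN_1244213 in double mutants against 1 Mek1 allele. With Y-linked signal as a covariate, double mutants against 1 Mek1 allele gave 0.01 for Sox5 ILMN_1244213 and 0.02 for Col2a1 ILMN_2759144. Over single omissions, in double mutants against controls, Sox5 ILMN_1244213 ran from -0.05 to 0.09 and Mia from -0.04 to 0.03. In double mutants against 1 Mek1 allele, Sox9 ran from -0.31 to 0.04, Sox5 ILMN_1244213 from -0.1 to 0.06 and Col2a1 ILMN_2759144 from -0.12 to 0.11. In 1 Mek1 allele against controls, Sox9 ran from -0.22 to 0.13, Sox5 ILMN_1244213 from -0.06 to 0.11 and Cyp2f2 from -0.11 to 0.18.

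Replicate numbers are shared between groups, but same-numbered arrays did not deviate together: the correlations of their deviations from group means ran from -0.23 to 0.17 over 12 pairs, 3 of them over 0.1. With the replicate number as a block, 0 cartilage probes passed in each comparison, and Hapln1 was at -0.65 (limma adjusted p = 0.115). Over all probes the block gave 192, 1 and 38 calls for double mutants against controls, double mutants against 1 Mek1 allele and 1 Mek1 allele against controls, beside 352, 47 and 97 without it. Over the other alternatives, single omissions included, these counts ran from 47 to 827, 4 to 79 and 15 to 355. Signal over background limits the readings: 12 of 19 probes were at background.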
